A study of Mus musculus with 18 samples.

Results

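Long intergenic non-coding RNAs (lincRNAs) are transcribed by RNA polymerase II from genes that lie between protein-coding genes, are usually spliced, and encode no known protein. Many are made at low levels and in few cell types, and embryonic stem cells have a set of their own. The transcripts described here are the 200 autosomal lincRNA genes with the most reads in nascent RNA of mouse embryonic stem (mES) cells. They were selected by rule from the 5535 genes of biotype lincRNA in the GENCODE M21 annotation, among 54446 genes in the count tables. Sex-chromosomal genes were left out, as were Malat1, Neat1, Meg3, H19, Rian, Mirg, Gas5 and every symbol beginning with Snhg. The remaining 4880 genes were ranked by reads summed over all libraries. Of these, 4118 had at least 1 read and 762 had none. The sum was the only value used to choose the members, so their abundance is a description and was not tested.

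The libraries were made from WT and *Tet2*-KO mES cells that had been given 5-ethynyl uridine (EU) for 10, 20 or 40 min, with 3 replicates in each of 6 groups, 18 libraries in all. EU is built into RNA as it is made, so that RNA synthesised during the labelling time can be captured. Both genotypes were cultured with serum, LIF and inhibitors of GSK3 and MEK, and the KO cells carry *Tet2*-/- alleles. TET2 is a dioxygenase that oxidises 5-methylcytosine in DNA and RNA. The replicates of a group were dishes of the same cells and no further line of either genotype was named, so genotype cannot be told apart from the history of the cells. P-values therefore measure the spread between dishes. Each library held 17931614 to 23069143 reads on genes and 44162 to 512186 reads on ERCC spike-in RNA, which had been added in proportion to total RNA. Of 8 embryonic stem cell markers, 7 were read at over 1 RPM (reads on a gene per 1000000 gene reads), and Sox2, which lies inside another gene on its own strand, was listed at 0. Their summed level was 2872 to 3053 RPM in WT and 2093 to 2210 in KO libraries. The summed level of 8 feeder fibroblast markers was 24.3 to 57.3 RPM in WT and 20.6 to 35.3 in KO, with Dcn, Thy1 and Lum below 1. Those of 6 primitive endoderm markers were 6.75 to 13.8 and 5.49 to 10.7, with Sox17, Foxa2 and Sox7 below 1. The 6 markers of 2-cell-like cells stood at 17.9 to 29.6 RPM in WT and 2.22 to 4.77 in KO, with Tcstv1 and Tcstv3 below 1. The part of these marker differences in the results below was not tested. Reads on *Tet2* itself were 589 to 741 RPM in WT and 530 to 643 in KO. These reads cover the whole transcribed span, so they do not check the deletion.

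Levels are given on 2 scales. Reads per 1000 ERCC reads compare RNA against the spike-in, and a factor common to all genes of a library moves every gene on this scale. RPM (or percent of gene reads) gives the share of a gene among all gene reads, which removes such a factor. The 2 scales differ by a shift shared by all genes. The median log2 KO over WT of the 19910 genes tested was 0.70 per ERCC read and −0.04 as share, and it was 0.00 after TMM normalization, another scaling that centres the genes on each other. All 200 members passed the filter on low counts and were tested. ERCC RNA was added in proportion to total RNA, so levels per ERCC read do not give labelled RNA per cell.

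The members were of moderate length and lightly spliced. Their median span was 21970 bp with 4 exons and 1729 bp of exonic sequence, against 26740 bp, 10 exons and 4322 bp for the protein-coding genes tested. Single-exon genes made up 7 members. Reads fell on introns as well as exons, so a level per length refers to the span that no other gene on the strand covers. By position, 23 members shared exon sequence with a gene on their strand or overlapped the span of a coding gene on it. Of the others, 14 began divergently within 1000 bp of a coding gene's start. Another 22 lay within 10000 bp downstream of a coding gene on their strand, and 141 fell in none of these classes. Across all 200, 39 had an exon that overlapped a gene on the opposite strand. The span of 58 lay partly under some gene on their strand. The most populated chromosomes were 13 and 17 with 19 members each. Of the members, 189 were also among the 200 with most WT reads and 182 among the 200 with most KO reads. The 11 that were not among the first and the 18 that were not among the second entered through the genotype in which they are high, so their differences between genotypes are given below as values with no test, and they are included in the counts of called members. The last members inside the limit were 9530059O14Rik with 3171 reads, Gm34961 with 3150 and AL805899.1 with 3146. The first outside it were Gm31374 with 3128, Gm43049 with 3105 and 2810429I04Rik with 3071.

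Reads were concentrated on very few members. Gm26917 and Gm42418 held 7251094 of the 10332776 member reads, or 70.2%. Both are single-exon genes next to each other on chromosome 17 (GRCm38, chr17:39843013-39846341, plus strand, and chr17:39846958-39848788, plus strand), annotated as lincRNA over sequence of the ribosomal RNA repeat, and RefSeq names the second Rn18s-rs5. Ribosomal RNA had been depleted before capture, so their level reflects what was left after depletion as well as what was made. Gm26917 had 16542 to 23233 RPM in the 9 WT libraries and 15378 to 20533 in the 9 KO libraries, and the ranges overlapped. Gm42418 had 986 to 1297 in WT and 554 to 1007 in KO. As share of gene reads both were lower in KO (log2 −0.22 ± 0.042 SE, adjusted p = 2.88e-05, and −0.42 ± 0.033, adjusted p = 6.32e-13). Per ERCC read they were higher in KO (0.51 and 0.32), and this direction turned under TMM (−0.18 and −0.38). Summed values below are therefore given for the other 198 members.

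Among those 198, Lncenc1 and Pvt1 held 18.8% of the reads and the 10 with the most held 37.4%. Lncenc1, a nuclear transcript of naive embryonic stem cells, spans 62038 bp with 6 exons (chr13:97434970-97497007, plus strand). Pvt1, the neighbour of the Myc oncogene, spans 340111 bp with 21 exons (chr15:62037986-62378096, plus strand). Per length, the order was different from the order by reads. After Gm26917 and Gm42418, the highest WT level per kb was that of Bc1, at 336 RPM per kb. Bc1 is a short RNA polymerase III transcript of 168 bp. Next came 5430416N02Rik with 22.2 and Mir142hg with 20.4 per kb. Platr10 had 14.1 per kb, Lncenc1 had 12.7 per kb and Pvt1 2.39 per kb.

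The first comparison asks how much newly made lincRNA each genotype held at each labelling time. Summed over the 198 members, reads per ERCC read rose with EU time in both genotypes and were higher in KO at every time. After 10 min, WT libraries held 0.396 ± 0.030 reads per ERCC read (SD, n = 3), and the later times gave 1.22 ± 0.063 and 1.82 ± 0.084. KO libraries held 0.846 ± 0.049, 1.84 ± 0.098 and 3.51 ± 0.27. The lowest KO library was above the highest WT library at each time. KO over WT was 2.14 at 10 min, 1.50 at 20 min and 1.93 at 40 min. For protein-coding genes the same ratios were 2.06, 1.41 and 1.61. Per minute of EU, the least-squares slope of this level was 0.0450 ± 0.0052 (SE) in WT and 0.0881 ± 0.0044 in KO, a ratio of 1.96, against 1.56 for protein-coding genes. With Gm26917 and Gm42418 included, the ratio of slopes was 1.44. For single members, the slope was larger in KO for 174 of 200 (87.0%), against 86.8% of all genes tested, and the median log2 ratio of slopes was 0.78 for members and 0.64 for all genes.

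**Figure D1:**
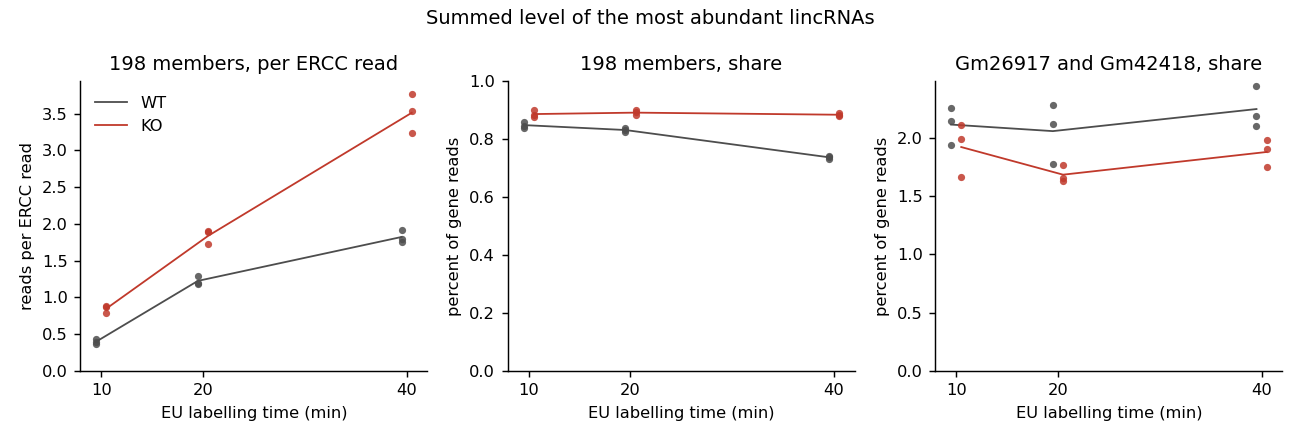
Summed reads on the members against EU labelling time (min), with 1 point per library and lines through group means, WT in grey and KO in red. The left panel gives reads per ERCC read and the middle panel percent of gene reads for the 198 members without Gm26917 and Gm42418, and the right panel gives percent of gene reads for those 2; in the middle panel the WT mean falls from 0.848% to 0.737% while the KO mean stays at 0.884% to 0.891%.

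As share of gene reads, the summed level of the 198 members was lower at 40 than at 10 min in every WT library, while in KO the means of the 3 times differed by less than the SD at 10 min. With 10 min of EU it was 0.848% ± 0.009 of gene reads in WT (SD, n = 3), falling to 0.831% ± 0.008 after 20 and 0.737% ± 0.005 after 40 min. In KO it was 0.886% ± 0.012, 0.891% ± 0.009 and 0.884% ± 0.006. The WT values at 40 min lay below all other libraries. KO over WT of the share was 1.04 at 10 min, 1.07 at 20 min and 1.20 at 40 min. Without Lncenc1 and Pvt1 the same ratios were 1.05, 1.10 and 1.26. For protein-coding genes they were 1.01, 1.01 and 1.00. The share taken by Gm26917 and Gm42418 was 2.11% ± 0.16, 2.06% ± 0.26 and 2.25% ± 0.18 in WT and 1.92% ± 0.23, 1.68% ± 0.07 and 1.88% ± 0.12 in KO, and the SDs of this share were wider than those of the 198 members at every time.

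The next comparison tests each member between the genotypes. Per ERCC read and over the mean of EU times, 166 of 200 members were higher in KO and 20 lower (edgeR, adjusted p below 0.05), where 80.5% and 4.15% of all genes tested were called. The median log2 KO over WT was 0.73 for members and 0.70 for all genes. At 10 min 167 members were higher and 13 lower (background 79.0% and 2.10%). At 20 min 128 were higher and 25 lower (53.7% and 4.86%), and at 40 min 162 and 15 (68.2% and 2.84%). The genotypes did not overlap at any EU time for 124 members above WT and 14 below it, against 51.6% and 1.56% of all genes. Under TMM the split of the 200 was 84 higher and 70 lower (background 28.6% and 27.9%), so the count of members that were higher follows the scale. The count that was lower depends also on the choice of members: among the 200 lincRNAs with the most KO reads, 10 were lower per ERCC read.

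As share of gene reads the members split evenly, with 76 higher in KO and 75 lower and a median of 0.00, where 24.6% and 32.0% of all genes were called. The members had a median of 7840 reads and all genes tested 2841, which makes a call of a given size easier among members. Of those called, 19 were over 2-fold higher and 20 over 2-fold lower, where 4.53% and 4.87% of all genes passed these limits. The genotypes did not overlap at any EU time for 49 members above and 49 below WT (11.8% and 13.9% of all genes). These counts, and those over 2-fold, include members that entered the list through the genotype in which they are high. The choice of members can therefore raise them above the shares of all genes. Because the 2 scales differ by a shared shift, members lower per ERCC read lie lower as share as well. All 20 of them were also called lower as share. Of the members higher per ERCC read, 76 were also higher as share and 41 were lower as share.

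**Figure D2:**
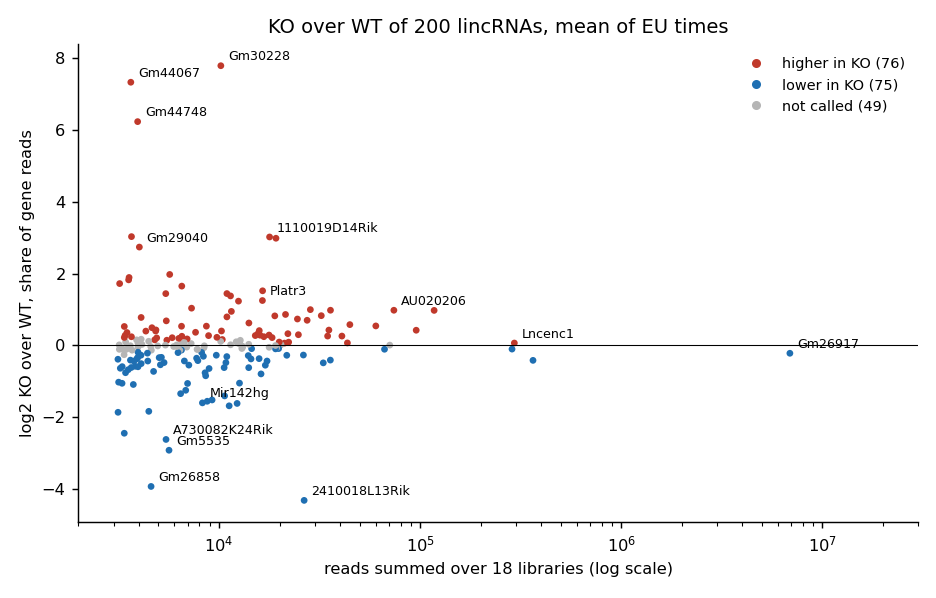
Log2 KO over WT of each of the 200 members as share of gene reads (vertical axis, mean of EU times) against its reads summed over 18 libraries (horizontal axis, log scale), with 1 point per gene. The 76 members called higher in KO are red, the 75 called lower are blue and the rest grey. At the top, Gm30228, Gm44067 and Gm44748 have few WT reads, so their height depends on the prior count. 2410018L13Rik lies below −4.

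The 5 largest rises and the 5 largest falls in KO were named only among members whose genotypes did not overlap per ERCC read. Their separation, given below, was thus a condition of the choice. A few members were read almost only in KO. Gm30228, a 3-exon gene of 64741 bp (chr10:27744884-27809624, minus strand), had 2 to 12 reads in each WT library and 845 to 1636 in each KO library. Per 1000 ERCC reads this was 0.00685 to 0.139 in WT and 4.30 to 32.6 in KO. No KO library overlapped a WT library. Its nearest coding gene, the laminin gene Lama2 at 125126 bp, was higher in KO (log2 share difference 1.22, adjusted p = 1.84e-12). Gm44067, of 3174 bp (chr6:128843786-128846959, minus strand), had 1 to 5 reads in each WT library and 306 to 485 in each KO library. Gm44748, of 155575 bp (chr7:41128646-41284220, minus strand), had 4 to 10 reads in WT and 308 to 647 in KO. These 3 genes are members through their KO reads. With so few WT reads a fitted difference depends on the prior count, and none is given.

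Others were read in both genotypes and were several-fold higher in KO. Gm38324 (chr3:22285081-22297830, minus strand) had 1.48 to 3.65 RPM in WT and 15.8 to 21.5 in KO. 1110019D14Rik, a gene of 172860 bp (chr6:13871526-14044385, plus strand) that begins 8 bp from the start of 2610001J05Rik on the other strand, had 9.64 to 11.6 in WT and 68.5 to 119 in KO. Neither pair of ranges overlapped. Gm38324 is a member through its KO reads, and its log2 KO over WT was 3.76 per ERCC read. 1110019D14Rik is among the 200 by the reads of either genotype, and its log2 difference was 3.75 ± 0.065 (SE) per ERCC read. As share it was 3.02 ± 0.036, and that of the neighbouring 2610001J05Rik was 0.46 (adjusted p = 0.000165).

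The 5 members furthest below WT in KO, among those without overlap of genotypes, were read in every library of both genotypes. All 5 are members through their WT reads. 2410018L13Rik, a 7-exon gene of 56288 bp (chr12:22953997-23010284, minus strand), had 126 to 144 RPM in WT and 5.56 to 7.71 in KO. Per 1000 ERCC reads it had 5.50, 5.88 and 6.41 in the WT libraries at 10 min and 0.555, 0.587 and 0.639 in the KO libraries. At 40 min the values were 33.0, 33.8 and 37.1 in WT and 2.41, 2.72 and 3.17 in KO. The genotypes stayed apart at every time, and the log2 KO over WT was −3.58 per ERCC read and −4.31 as share. Its transcripts share at least 95% identity over at least 50% of their length with 3 other annotated genes (9030624G23Rik, Gm20336 and Gm30124), so reads may be divided among these copies or dropped as non-unique, and its level is uncertain. In all, 16 members have such a counterpart elsewhere.

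Gm26858, of 9141 bp (chr17:32369305-32378445, plus strand), had 15.5 to 27.0 RPM in WT and 0.845 to 2.27 in KO. It lies across the coding gene Wiz, whose own log2 share difference was −0.93 (adjusted p = 2.68e-20). Gm5535, of 109176 bp on chromosome 2, had 23.5 to 28.5 RPM in WT and 2.66 to 4.68 in KO. A730082K24Rik on chromosome 7 had 21.5 to 27.2 in WT and 3.46 to 5.02 in KO, and C330004P14Rik on chromosome 10 had 13.3 to 17.8 and 1.85 to 3.42. None of these ranges overlapped. Per ERCC read the log2 differences were −3.19, −2.19, −1.89 and −1.72 in the order named.

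**Figure D3:**
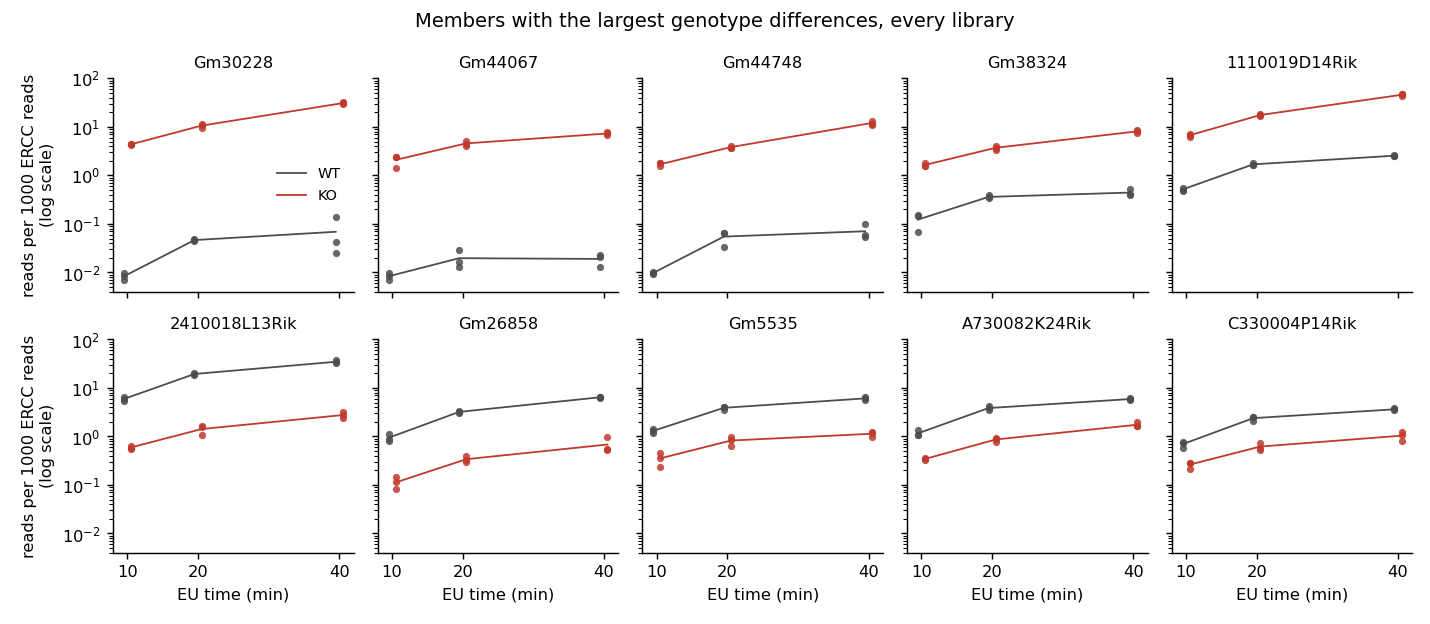
Reads per 1000 ERCC reads (log scale) against EU labelling time (min) for the 5 members with the largest rise and the 5 with the largest fall in KO among those whose genotypes do not overlap. Points are single libraries and lines join group means, WT in grey and KO in red; in each panel no KO library overlaps a WT library at the same time.

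Because TET2 acts on methylated cytosine, the starts of these members are shown with each CG dinucleotide in capitals. Windows run from 250 bases before to 50 after the start given by RefSeq (GRCm38.p6), 300 bases each, written 5′ to 3′ along the gene's strand. Of the 200 members, 99 had an entry in the table used here. Gm30228 and 1110019D14Rik were higher in KO, 2410018L13Rik and A730082K24Rik were lower, and Lncenc1 is the member with the most reads after the ribosomal pair.
Gm30228, chr10:27809667-27809966, minus strand: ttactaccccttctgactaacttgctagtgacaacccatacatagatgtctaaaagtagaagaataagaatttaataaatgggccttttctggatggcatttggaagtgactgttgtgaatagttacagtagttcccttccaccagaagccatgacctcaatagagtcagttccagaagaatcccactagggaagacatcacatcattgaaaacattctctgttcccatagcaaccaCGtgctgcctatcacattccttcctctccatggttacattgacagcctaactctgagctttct
1110019D14Rik, chr6:13871319-13871618, plus strand: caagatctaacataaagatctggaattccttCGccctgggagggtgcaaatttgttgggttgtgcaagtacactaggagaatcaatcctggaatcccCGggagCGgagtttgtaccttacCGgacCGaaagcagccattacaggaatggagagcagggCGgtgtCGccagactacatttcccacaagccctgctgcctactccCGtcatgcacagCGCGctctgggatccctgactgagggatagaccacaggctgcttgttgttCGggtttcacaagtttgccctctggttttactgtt
2410018L13Rik, chr12:23010194-23010493, minus strand: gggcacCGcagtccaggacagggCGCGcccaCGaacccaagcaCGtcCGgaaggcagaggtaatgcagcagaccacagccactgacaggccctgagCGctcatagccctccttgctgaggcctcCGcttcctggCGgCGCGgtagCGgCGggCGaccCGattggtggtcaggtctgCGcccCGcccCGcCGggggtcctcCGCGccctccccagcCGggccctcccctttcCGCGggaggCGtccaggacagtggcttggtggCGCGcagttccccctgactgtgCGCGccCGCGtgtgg
A730082K24Rik, chr7:114948400-114948699, plus strand: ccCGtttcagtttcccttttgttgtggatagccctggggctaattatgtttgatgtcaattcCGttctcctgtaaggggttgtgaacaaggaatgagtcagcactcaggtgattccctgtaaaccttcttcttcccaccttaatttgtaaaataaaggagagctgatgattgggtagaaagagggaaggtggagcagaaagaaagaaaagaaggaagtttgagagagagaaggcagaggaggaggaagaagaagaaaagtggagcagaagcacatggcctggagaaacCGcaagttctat
Lncenc1, chr13:97434720-97435019, plus strand: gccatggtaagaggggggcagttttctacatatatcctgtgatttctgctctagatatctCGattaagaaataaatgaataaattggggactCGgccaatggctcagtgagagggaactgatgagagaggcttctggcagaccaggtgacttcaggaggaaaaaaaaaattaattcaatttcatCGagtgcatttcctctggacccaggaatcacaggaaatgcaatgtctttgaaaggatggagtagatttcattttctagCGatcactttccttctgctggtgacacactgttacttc

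These starts differed widely in CG content. That of 2410018L13Rik holds 31 CG dinucleotides, a number reached by 10.6% of all promoters in the table, and that of 1110019D14Rik holds 11 (41.4%). Lncenc1 has 4, A730082K24Rik 3 and Gm30228 1, a number reached by 94.6% of promoters. The members with an entry had a median of 7 CG, as did all promoters in the table. Of the 37 members with at least 10 CG, 11 were higher in KO as share and 12 lower. Of the 62 with fewer, 25 were higher and 27 lower. Of all genes tested, 24.6% were higher and 32.0% lower. The median log2 share difference was −0.05 and 0.00. The letters CG in a window say nothing of whether it was methylated, which was not measured here.

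The neighbours of the members were compared next, taking for each the nearest protein-coding gene. The median distance was 16199 bp and 182 of these genes were tested. Among the 19 members over 2-fold higher as share, 18 had a tested neighbour, of which 9 were higher and 5 lower. Among the 20 over 2-fold lower, 18 had a tested neighbour, of which 11 were lower and 1 higher. All genes were called at 24.6% higher and 32.0% lower. Both groups of members include some that entered the list through the genotype in which they are high. Across the 182 pairs, the log2 share differences of member and neighbour had a Pearson correlation of 0.22. It was 0.34 for 83 pairs within 10000 bp and 0.16 for 99 pairs farther apart. The pairs share their libraries, so this is a description.

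Embryonic stem cell lincRNAs were 11 of the members: Lncenc1 and 10 of the Platr genes, named as pluripotency-associated transcripts. Per ERCC read all 11 were higher in KO, where 80.5% of all genes were. As share of gene reads 5 were higher and 3 lower (24.6% and 32.0% of all genes), and TMM gave the same counts. The median log2 share difference was 0.02, against 0.00 for all members. The summed embryonic stem cell markers were lower in KO, as given above, but the single markers differed. Zfp42 had 519.8 to 568 RPM in WT and 103 to 122 in KO, and Tfcp2l1 had 889 to 1073 and 657 to 794. Klf4 had 124 to 173 and 85.3 to 102. The ranges of these 3 did not overlap. Those of Nanog (293 to 330.0 and 267 to 306), Esrrb (767.5 to 896 and 750.4 to 842), Pou5f1 (74.9 to 108 and 79.8 to 113) and Dppa5a overlapped, and Sox2 was listed at 0. The part of these markers in the values of the lincRNAs was not tested.

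Lncenc1 had 829, 852 and 868 RPM in WT at 10 min, 789, 798 and 811 at 20 min and 710.0, 714 and 722 at 40 min. In KO it had 819.5, 829 and 902 at 10 min, 807, 815 and 819 at 20 min and 802, 804 and 805 at 40 min. The genotypes overlapped at 10 and 20 min and were apart at 40 min, where the WT libraries were the lowest of all 18. The difference over all times was small (log2 0.06 ± 0.014 SE, adjusted p = 0.000209), and per ERCC read it was 0.80 ± 0.049.

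Platr3, a 4-exon gene of 3157 bp on chromosome 2, had 20.0 to 36.4 RPM in WT and 58.2 to 72.8 in KO, the largest difference of these 11 (log2 1.25 ± 0.041, adjusted p = 4.33e-23). Platr28 had 57.0 to 81.5 in WT and 113 to 158 in KO (0.98 ± 0.025), and Platr7 had 8.89 to 14.6 and 17.04 to 21.2 (0.68 ± 0.063). The ranges of these 3 genes did not overlap between genotypes. Platr10 was also called higher (0.07 ± 0.025, adjusted p = 0.0218), a call that was lost without any of 5 libraries (KO 10 min replicate 1 or 2, KO 40 min replicate 3, WT 20 min replicate 1 or WT 40 min replicate 1), with log2 values of 0.056 to 0.060. Platr22, Platr6 and Platr26 were lower as share, with log2 −0.41 ± 0.023, −0.31 ± 0.042 and −0.54 ± 0.066. Platr20, Platr4 and Platr27 did not pass the test, with values of 0.02, 0.00 and −0.13. Members with the same prefix therefore differed in opposite directions between the genotypes.

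**Figure D4:**
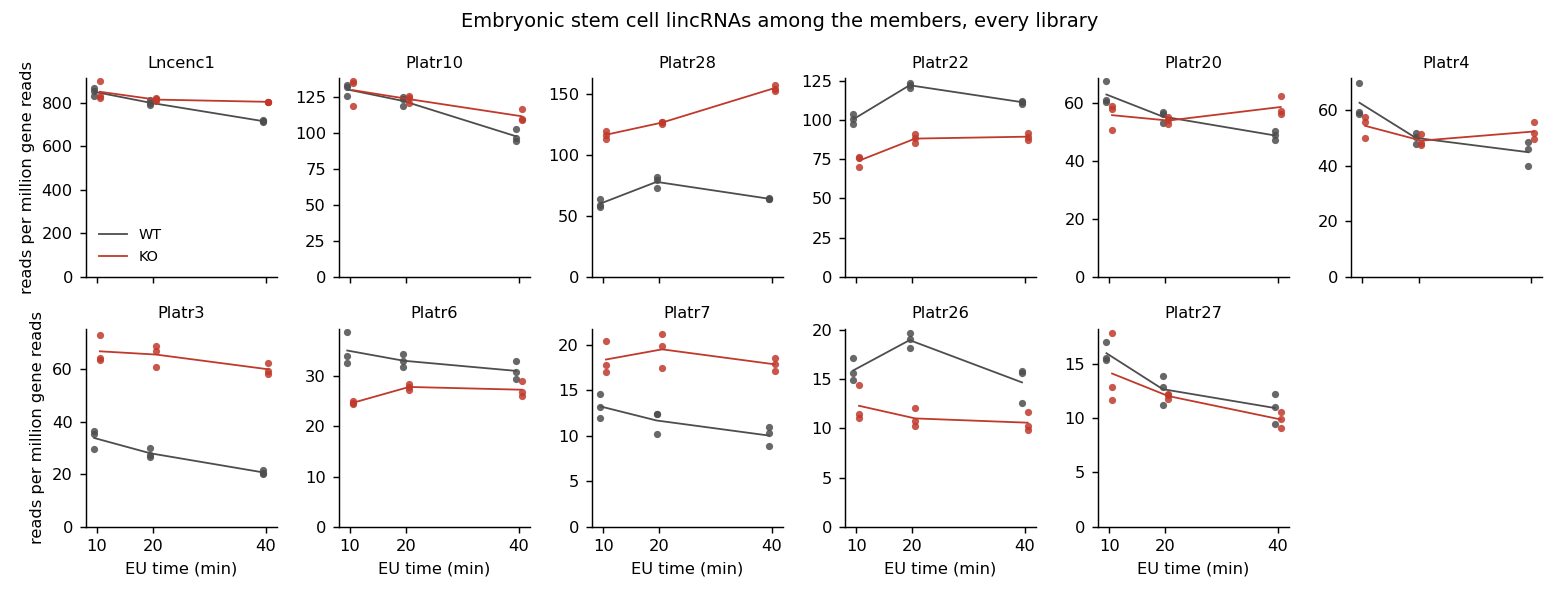
RPM against EU labelling time (min) for the 11 embryonic stem cell lincRNAs among the members, with 1 point per library and lines through group means, WT in grey and KO in red. Platr3, Platr28 and Platr7 lie higher in KO at every time, Platr22, Platr6 and Platr26 lie lower, and Lncenc1 separates at 40 min.

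Among 8 members that are conserved or well studied, all were higher in KO per ERCC read, where 80.5% of all genes were. As share 2 were higher and 4 lower (TMM: 2 and 3), where 24.6% and 32.0% of all genes were called. Mir17hg, the primary transcript of the miR-17-92 cluster, had 32.1 to 58.8 RPM in WT and 44.9 to 61.8 in KO (log2 0.29 ± 0.038, adjusted p = 8.47e-08). Lncpint, a p53-induced transcript, was higher by nearly the same amount (0.28 ± 0.035). Trp53cor1, also known as lincRNA-p21 and transcribed next to Cdkn1a, had 39.3 to 56.6 in WT and 34.6 to 40.0 in KO and was lower (−0.37 ± 0.034, adjusted p = 2.13e-11). Cdkn1a, the cell-cycle inhibitor gene 11797 bp away, was lower as well (−0.28, adjusted p = 1.73e-09).

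Lockd lies downstream of Cdkn1b, another cell-cycle inhibitor gene. The log2 share difference of Lockd was −0.19 ± 0.067 (adjusted p = 0.0158, and 0.0551 under TMM) and that of Cdkn1b was −0.53 (adjusted p = 1.74e-06). Halr1, also called Haunt and located beside the Hoxa cluster, was lower (−0.38 ± 0.068). Pvt1 was lower by a small amount (−0.10 ± 0.011, adjusted p = 1.09e-09), with 766 to 859.8 RPM in WT and 651 to 821 in KO. Its value per ERCC read was 0.63 ± 0.049 and turned to −0.06 under TMM. Norad (2900097C17Rik), which binds Pumilio proteins, and Epb41l4aos, a snoRNA host, did not pass the test, with −0.02 ± 0.065 and 0.06 ± 0.074. Outside the lists and named after their values were seen, Cyrano (1700020I14Rik) and Ephemeron (Eprn) had log2 share differences of 0.24 ± 0.032 and 0.22 ± 0.042.

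The transcripts of 14 members span an annotated miRNA gene on their strand, with 22 miRNA genes in all. Primary miRNA transcripts are cut by Drosha into hairpins, from which Dicer releases the mature miRNA, and bases 2 to 8 of that miRNA, the seed, set much of which mRNAs it pairs with. The RefSeq table (GRCm38.p6) held mature sequences for 13 of the 22 genes, in 6 hosts. For each of these genes 1 arm is printed with the seed in capitals, to show which seeds the hosts share. Mir30d (in Gm20732), Mir124a-1 and Mir3078 (in Mir124a-1hg) had no entry under these names.
mmu-miR-17-5p, chr14:115043684-115043706, plus strand: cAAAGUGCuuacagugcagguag
mmu-miR-20a-5p, chr14:115044183-115044205, plus strand: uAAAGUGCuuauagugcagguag
mmu-miR-18a-5p, chr14:115043867-115043889, plus strand: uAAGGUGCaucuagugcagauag
mmu-miR-19a-3p, chr14:115044048-115044070, plus strand: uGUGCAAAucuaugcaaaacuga
mmu-miR-19b-3p, chr14:115044358-115044380, plus strand: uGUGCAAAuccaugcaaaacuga
mmu-miR-92a-3p, chr14:115044476-115044496, plus strand: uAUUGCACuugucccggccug
mmu-let-7a-5p, chr13:48538239-48538260, minus strand: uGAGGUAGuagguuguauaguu
mmu-let-7d-5p, chr13:48536078-48536099, minus strand: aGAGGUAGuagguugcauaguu
mmu-let-7f-5p, chr13:48537889-48537910, minus strand: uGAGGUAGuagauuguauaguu
mmu-miR-101a-3p, chr4:101346957-101346977, minus strand: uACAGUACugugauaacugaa
mmu-miR-142a-3p, chr11:87756903-87756925, plus strand: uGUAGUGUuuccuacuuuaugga
mmu-miR-31-5p, chr4:88910614-88910635, minus strand: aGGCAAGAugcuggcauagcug
mmu-miR-1839-5p, chr7:81529919-81529940, plus strand: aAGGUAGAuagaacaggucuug

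Within Mir17hg, miR-17-5p and miR-20a-5p share the seed AAAGUGC, and miR-19a-3p and miR-19b-3p share GUGCAAA. The let-7 sequences of 6720427I07Rik share GAGGUAG. No seed printed here is shared between hosts. The others come from E130102H24Rik (miR-101a), Mir142hg (miR-142a), AL805899.1 (miR-31) and 2900076A07Rik (miR-1839). Of the 14 hosts, 11 were higher in KO and 2 lower per ERCC read (80.5% and 4.15% of all genes), and 4 were higher and 6 lower as share (24.6% and 32.0% of all genes), with 5 and 5 under TMM. The host with the largest share difference was Mir142hg, whose miRNA is known from blood cells. It had 26.4 to 42.5 RPM in WT and 8.41 to 15.0 in KO (log2 −1.60 ± 0.061, adjusted p = 2.45e-21), and was also lower per ERCC read (−0.87 ± 0.073). The coding gene Tspoap1, 3271 bp away, had a log2 share difference of −1.92 (adjusted p = 6.90e-22).

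Mir124a-1hg, which gives rise to a miRNA of neurons, had 11.9 to 16.0 RPM in WT and 5.51 to 7.58 in KO (log2 −1.09). AL805899.1, which spans Mir31, had 5.90 to 16.4 in WT and 5.19 to 8.99 in KO (log2 −0.39). Both are members through their WT reads. Gm20732, which spans Mir30d, was lower (−0.30 ± 0.048). The let-7 host 6720427I07Rik did not pass the test (0.10 ± 0.048, adjusted p = 0.0608), while TMM gave an adjusted p of 0.0114. The miR-101a host E130102H24Rik was marginally lower (−0.09 ± 0.038, adjusted p = 0.0411), a call lost under TMM (adjusted p = 0.263) and without any of 11 single libraries. The miR-1839 host 2900076A07Rik was higher (0.15 ± 0.062, adjusted p = 0.0348), a call lost without any of 8 single libraries. These are reads on host transcripts, and mature miRNAs were not measured.

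Gm37245 was the host with the most reads, spanning a predicted miRNA gene (Gm22752) on chromosome 3. It had 181 to 251 RPM in WT and 393 to 485 in KO (log2 0.97 ± 0.017, adjusted p = 5.76e-31). Of the other members among the 10 with the most reads, AU020206 had 129 to 147 RPM in WT and 222 to 302 in KO (0.98 ± 0.019), 9330185C12Rik had 115 to 153 and 167 to 224 (0.54 ± 0.019), and Gm26624 had 213 to 239.5 and 269 to 350.3 (0.42 ± 0.015). The genotypes did not overlap for these genes. 5031425E22Rik, which begins 172 bp from the start of Kmt2e, was lower over the mean of times (−0.11 ± 0.020, adjusted p = 1.45e-05), and 5430416N02Rik did not pass the test (0.01 ± 0.023).

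The labelling time was compared as share of gene reads, since per ERCC read all 200 members were higher at 40 than at 10 min. Between 10 and 40 min, over the mean of genotypes, 50 members rose and 98 fell in share, where 19.9% and 32.6% of all genes tested were called. The median log2 40 over 10 min was −0.16 for members, −0.10 for all genes, −0.07 for protein-coding genes and −0.36 for the 1412 lincRNA genes tested that are not members. Under TMM 61 rose and 82 fell, where 25.98% and 26.05% of all genes tested were called. The 57 members with a span under 10 kb had a median of −0.47 in WT and −0.13 in KO, the 80 of 10 to 50 kb −0.23 and 0.08, and the 63 over 50 kb −0.19 and 0.00. These differences between span groups were not tested.

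The members that fell most were F630040K05Rik, Bc1 and Gm36264. F630040K05Rik, which begins 662 bp from the start of 1600014C23Rik on chromosome 17, had 16.2 to 17.7 RPM at 10 min and 4.76 to 5.04 at 40 min in WT, and 14.5 to 16.9 and 4.01 to 5.49 in KO (log2 −1.77 ± 0.093). Bc1 had 90.9, 91.6 and 114 in WT at 10 min and 19.8, 22.4 and 27.3 at 40 min. In KO it had 30.4, 38.5 and 69.9 at 10 min and 19.3, 22.8 and 23.0 at 40 min (mean of genotypes −1.60 ± 0.15). The KO libraries at 10 and 20 min spread more widely, relative to their mean, than those of any other member. Bc1 sequence is found in 7 other annotated genes, so its level is uncertain. Gm36264 changed by −1.59 ± 0.17.

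The members that rose most were Gm34933, Gm26901 and Gm30228. Gm34933, of 95533 bp on chromosome 6, had 5.57 to 6.11 RPM at 10 min and 15.4 to 17.05 at 40 min in WT, and 6.22 to 7.98 and 20.0 to 22.6 in KO (log2 1.52 ± 0.079). Gm26901 on chromosome 1 rose by 0.78 ± 0.047. Gm30228 rose by 0.69 ± 0.27 (adjusted p = 0.0287). That call rests on a few WT reads and was lost without WT 10 min replicate 1 or 2, or without WT 40 min replicate 3, where the value was 0.20. The time differences of both genotypes had a Pearson correlation of 0.82 across the 200 members, which share their libraries.

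Falls with labelling time were called more often in WT. In WT 110 members fell and 30 rose between 10 and 40 min (29.5% and 16.1% of all genes), with a median of −0.26. In KO 57 fell and 54 rose (20.0% and 16.5%), with a median of −0.03. Of the members, 54 fell in both genotypes, 48 fell in WT and were not called in KO, 8 fell in WT and rose in KO, and 24 rose in both. None was called as rising in WT and falling in KO. Among all genes, falls were also called more often in WT. The shares of all genes in these joint classes were not counted.

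The test of this difference itself asks whether KO over WT, as share of gene reads, changed between 10 and 40 min. The change was higher for 51 members and lower for 5, where 5.89% and 3.36% of all genes tested were called. The median change was 0.20 on the log2 scale for members, 0.06 for all genes, 0.05 for protein-coding genes and 0.18 for lincRNAs that are not members. Of those other lincRNAs, 1.91% were called higher and 0.85% lower. Members had a median of 7840 reads, all genes 2841 and the other lincRNAs 369.5, and more reads make a call of a given size easier. The estimate was above 0 for 165 of the 200 members, against 58.7% of all genes. Per ERCC read the same change was higher for 4 members and lower for 21, where 0.55% and 19.3% of all genes were called. Its median there was −0.14 for members and −0.29 for all genes, so against the spike-in KO over WT mostly fell. Under TMM, 40 members were called higher, all of them among the 51, and 6 lower, where 3.89% and 6.13% of all genes were called, and the member median was 0.15. Leaving out single libraries gave 39 to 55 members higher and 3 to 6 lower. The count of 5 went to 3 without WT 10 min replicate 2, WT 40 min replicate 1, WT 40 min replicate 2, KO 10 min replicate 1 or KO 40 min replicate 1. Among the 400 lincRNAs with the most reads, 64 were higher and 6 lower.

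Of the 51 members, 36 fell with time in WT and 4 rose there, while 6 fell and 22 rose in KO, a split not counted for all genes. The group includes 7 of the 11 embryonic stem cell lincRNAs, where 25.5% of the members and 5.89% of all genes were called. These 11 had a median of 19100 reads, against 7840 for all members, which makes a small change easier to call. The calls of Platr10 and Platr6 among them were lost under TMM and, for each, without any of 7 single libraries. 5031425E22Rik had 220.4, 231 and 233 RPM in WT at 10 min, 199.7, 200.4 and 204 at 20 min and 133, 142 and 150.4 at 40 min. In KO it had 176, 179 and 179 at 10 min, 164, 164 and 169.5 at 20 min and 174, 176 and 177 at 40 min. The order of the genotypes therefore changed between 10 and 40 min, with all KO libraries below WT at the first and above it at the last (change 0.67 ± 0.048, adjusted p = 4.16e-11). Platr3 had a log2 40 over 10 min of −0.71 in WT (adjusted p = 3.28e-09) and −0.16 in KO (adjusted p = 0.0613), a change of 0.55 ± 0.10. For Platr20 and Platr4 the changes were 0.44 ± 0.082 and 0.42 ± 0.099, and for Trp53cor1 0.40 ± 0.082. 1110019D14Rik rose in KO by 0.72, had −0.09 in WT (adjusted p = 0.37), and changed by 0.81 ± 0.092.

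The largest change of all members, named after its value was seen, was that of Gm2379 (1.14 ± 0.15, adjusted p = 3.97e-06), a 2-exon gene of 4527 bp that follows Lncenc1 on the same strand (chr13:97511204-97515730, plus strand). Lncenc1 itself changed by 0.17 ± 0.035 (adjusted p = 0.0015). The 5 members whose change was lower were Pvt1 (−0.26 ± 0.027, adjusted p = 1.03e-07), Gm37245 (−0.17 ± 0.042), Gm46332, 4921509O07Rik and D830036C21Rik, of which the last 3 were also named after their values were seen. Pvt1 had 766 to 793 RPM in WT at 40 min and 651 to 669 in KO, while at 10 min it had 791 to 809 and 796 to 821. The genotypes overlapped at 10 min, and the KO libraries at 40 min were the lowest of all 18.

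**Figure D5:**
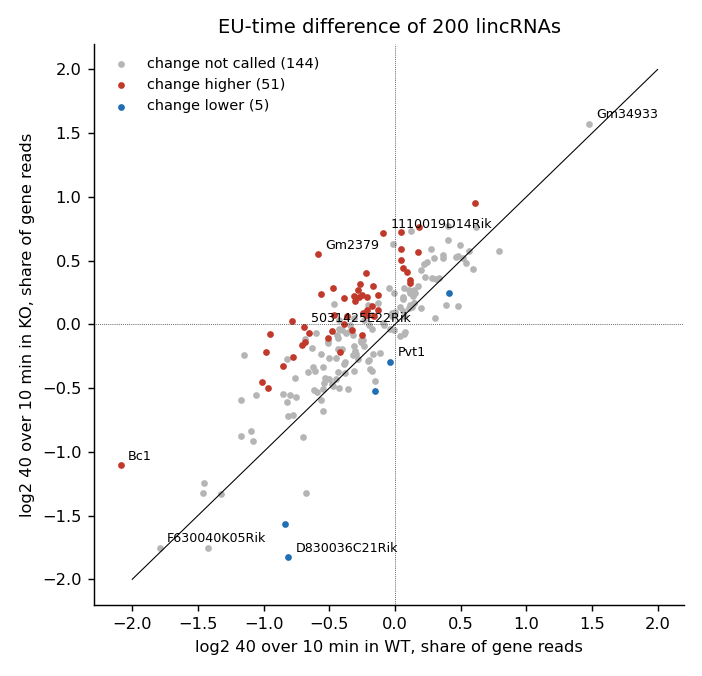
Log2 40 over 10 min of EU as share of gene reads in KO (vertical axis) against the same in WT (horizontal axis), with 1 point per member and the diagonal marking equal differences. The 51 members with a higher change lie above the diagonal, the 5 with a lower change below it, and the others were not called.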

How the data were processed

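Nascent RNA was sequenced from 18 libraries of mES cells, in 6 groups of 3 replicates (WT or *Tet2*-KO, with EU for 10, 20 or 40 min). The deposited files hold raw read counts per gene and per ERCC transcript, which the authors made with Trimmomatic 0.39, HISAT2 2.2.1 and HTSeq 0.12.4 on mm10, after biotin capture of EU-labelled RNA and a stranded library kit. The study's methods name an earlier GENCODE release than the M21 annotation used here for biotypes and positions. Genes nested on the same strand in a coding gene with over 20000 reads had reads in 1 of 2112 cases, and nested genes on the opposite strand in 1418 of 1771. Counts were therefore treated as stranded and as covering introns, with stretches shared by genes of a strand not counted. Between 17931614 and 23069143 reads per library fell on genes, and their number and the ERCC reads limit the precision.

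All genes that passed filterByExpr of edgeR (minimum count 10, 19910 genes) were fitted together with 1 term per group (R 4.3.3, edgeR 4.0.16, quasi-likelihood F-test, Benjamini-Hochberg over all genes, threshold 0.05). ERCC totals or gene read totals served as library sizes. The error of the ERCC totals is common to all genes of a library, so SEs of single genes do not show it in full. SEs were derived from the F statistic. Alternatives were TMM, DESeq2 1.42.0, other filters, list sizes and library sizes, a replicate block and each library left out. The list without near-identical genes and the summed level with a library left out were added after seeing the data. The fits were tested on simulated data. The members and gene lists were chosen with earlier results of these data known. Named are members on those lists, miRNA hosts, the 10 with most reads, the 5 largest rises and falls per ERCC read without overlap of genotypes, the 3 largest rises and falls with EU time, and the genes at the edge of the list, with nearest coding genes. Replicate numbers were not treated as pairs. Same-numbered libraries of different groups had a median correlation of −0.007 in their deviations (−0.072 to 0.064, 45 pairs). Taken over all genes tested and both genotypes, this cannot exclude pairing that shows in few genes. No replicates were duplicates, since their counts differed by more than sampling noise.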

Additional observations from a re-analysis of the deposited data

Results flagged for a closer look

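The change of KO over WT from 10 to 40 min of EU was tested as an interaction on the share of gene reads (edgeR). It was higher for 51 members and lower for 5, where 5.89% and 3.36% of all genes tested were called. Among the embryonic stem cell lincRNAs it was 0.17 for Lncenc1, 0.20 for Platr10, 0.32 for Platr28, 0.44 for Platr20, 0.42 for Platr4, 0.55 for Platr3 and 0.32 for Platr6, all on the log2 scale. The call of Platr10 was lost without any of 7 single libraries and under TMM, and that of Platr6 likewise without any of 7 and under TMM. It was 0.40 for Trp53cor1, 0.42 for the miRNA-gene host 6030443J06Rik, 0.21 for Gm26624, 0.24 for AU020206, 0.67 for 5031425E22Rik and 0.81 for 1110019D14Rik. Gm38324 is a member through its KO reads and had 33 to 80 reads in each WT library. Its change is given as a value with no test, 0.79, and 0.50 without WT 10 min replicate 3. Bc1 had 0.98, a call lost with DESeq2 on the same scale and without any of 7 single libraries. Gm26901 had 0.34, a call lost without KO 10 min replicate 1 or WT 40 min replicate 2. Pvt1 had −0.26 and Gm37245 had −0.17, the direction opposite to the others. Groups of 3 are too small for a test of single outlying libraries.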

How the results depend on the processing

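The calls per ERCC read depend on the scale. Of the 200 members, TMM called 42% higher and 35% lower over the mean of times, 33% and 31.5% at 10 min, 29.5% and 32.5% at 20 min, and 42% and 26% at 40 min. Of all genes tested, TMM called 28.6% and 27.9%, 22.5% and 21.4%, 20.3% and 18.2%, and 19.7% and 18.6% in the same order. DESeq2 with its own size factors called 41% and 34.5%, 33% and 30.5%, 29% and 32%, and 40.5% and 25.5% of the members. Its shares of all genes were not counted. Under TMM and DESeq2 size factors the values per ERCC read turned for Gm26917 (−0.18 and −0.19), Gm42418 (−0.38 and −0.38) and Pvt1 (−0.064 and −0.069). These scalings centre the genes on each other, which takes away the shift they share per ERCC read. Among the 200 lincRNAs with the most KO reads, 5% were lower per ERCC read over the mean of times, 3% at 10 min, 7% at 20 min and 4% at 40 min. The shares of all genes were 4.15%, 2.10%, 4.86% and 2.84%. The share of members whose change was lower was 1.5% with DESeq2 on the same scale, 4% of 100 members and 1.5% of 400, and the change was higher in 16% of 400. In the main fit it was lower in 3.36% of all genes and higher in 5.89%. The cause of these differences between settings was not tested. Without Gm26917 and Gm42418 the summed level had KO over WT of 1.50 at 20 min and 1.93 at 40 min per ERCC read, 1.04, 1.07 and 1.20 as share at the 3 times, and a slope ratio of 1.96. Leaving out single libraries gave 82% to 84% of members higher and 10% to 10.5% lower per ERCC read over the mean of times. The higher members were 80% to 84% (10 min), 58.5% to 64.5% (20 min) and 78% to 82% (40 min) of the list, and the lower members 6% to 8%, 11.5% to 13% and 7.5%. As share it gave 36% to 39% higher and 36% to 38.5% lower, for 40 over 10 min 22.5% to 25.5% and 46% to 50%, and for the change 19.5% to 27.5% and 1.5% to 3%. With all 200 members the summed KO over WT ran from 1.80 to 2.07, 1.16 to 1.34 and 1.42 to 1.52 per ERCC read and from 0.917 to 0.989, 0.851 to 0.926 and 0.905 to 0.957 as share. With the replicate block, 166 members were higher and 20 lower per ERCC read, 78 and 75 as share, and the change was higher for 53 and lower for 6. Shares of all genes with the block or with a library left out were not counted. The replicate numbers were not taken to mark shared dishes, and the block moved no count by over 1.5 times. For single named members, the alternatives that keep all libraries left 643 values with their call, or the lack of one, while 8 lost the call, 4 gained it and 6 reversed. Of 1692 values with 1 library left out, 63 lost the call and 15 gained it, and no called value changed sign. Members with few WT reads, such as Gm30228, are limited by depth.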
